A study of Mus musculus with 61 samples.

Results

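The 78 genes described here encode proteins of the mitochondrial ribosome. They are the protein-coding genes in the count table whose mouse symbol is Mrpl or Mrps followed by a number and at most a single letter, and they make up 78 of 55401 gene identifiers. By name, 49 belong to the large subunit (Mrpl) and 29 to the small subunit (Mrps). Mitochondria carry a small genome of their own, whose messenger RNAs are translated inside the organelle by a dedicated ribosome. The ribosomal RNAs of that ribosome come from the mitochondrial genome, while its proteins are encoded in the nucleus, made in the cytosol and imported. Its products are core subunits of the respiratory chain and of the ATP synthase, from which neurons draw much of their ATP. A few names do not match the place of the protein. Mrps30 and Mrps18a sit in the large subunit in structures of the mammalian mitochondrial ribosome, and Mrps36 is now known as a subunit of the oxoglutarate dehydrogenase complex.

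RNA was measured in nuclei sorted from the nucleus accumbens, a striatal region involved in reward, of male mice. Every mouse carried LSL-eGFP::L10a, a Cre-dependent fluorescent protein fused to a ribosomal protein, crossed with D2-Cre or D1-Cre, so the sort collected nuclei in which the driver of the D2 or the D1 dopamine receptor class had been active. Morphine sulphate or saline was injected daily for 15 days, 30 days in the home cage followed, and tissue was taken 1 h after a challenge injection of morphine or saline. In group names, the left letter is the daily injection and the right letter the challenge, with M for morphine and S for saline. In D2 nuclei there were 7 MM, 8 MS, 7 SM and 7 SS libraries, and in D1 nuclei there were 7 MM, 9 MS, 8 SM and 8 SS libraries. The labels list doses without assigning them to mice. They do not say that libraries came from separate animals, so p-values below measure the spread between these libraries, which may be technical in part.

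The libraries held 11518606 to 26108954 counts, with a median of 17924400. Olfactory receptor genes, which act chiefly in the nose, served as a yardstick and carried counts in every library. Whether any of them is transcribed in the striatum was not tested. Over 1093 such genes the density was 0.505 ± 0.113 CPM per kb of gene span (SD, n = 61), where CPM is the count of a gene scaled to the total of its library. If all genes carried that density over their whole span, 65.8 ± 14.7% of the counts would be accounted for (SD, n = 61), from 8.14% in D1 SS replicate 1 to 90.7%. D1 SS replicate 1 stood apart, with a density of 0.0624 CPM per kb, where the next lowest library had 0.277. Its 5 cortical glutamatergic markers summed to 298 CPM, against a median of 146 CPM over the D1 SS group. The cell type labels were checked against receptor, peptide and other neuron markers. The 5 D2 neuron markers summed to 575 to 2420 CPM in D2 libraries and 111 to 383 CPM in D1 libraries, and the 5 D1 neuron markers to 48.8 to 104 CPM in D2 libraries and 112 to 442 CPM in D1 libraries.

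Per length, mitochondrial ribosomal protein genes lay not far above the olfactory receptor genes. The measure is the counts per kb of gene span of a gene divided by the counts per kb over the olfactory receptor genes of the same library, so a ratio of 1 is the olfactory density. Averaged over 61 libraries, the ratio of the 78 genes had a median of 2.10, and 44 of 78 reached 2. In D1 SS replicate 1 all 78 genes were at 3.26 or higher, and without that library the median was 1.92 and 37 of 78 reached 2. Among all 21897 protein-coding genes the median was 1.52 and 29.4% reached 2, and among the other protein-coding genes of up to 10 kb the median was 1.42 and 28.2% reached 2. The olfactory receptor genes themselves had a median of 0.968, with 2.47% at 2 or more. Cytosolic ribosomal protein genes, with a median of 3.55, and nuclear genes of oxidative phosphorylation, with 2.65, were higher than the mitochondrial ribosomal set. These ratios are descriptions with no test. The mean of the D2 libraries reached 2 for 27 of 78 genes and the mean of the D1 libraries for 59 of 78, or 40 without D1 SS replicate 1. The shares of all protein-coding genes above are over 61 libraries. None is given for D2, for D1 or with D1 SS replicate 1 alone or left out. Counts over those libraries therefore cannot be read as particular to the set.

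**Figure D1:**
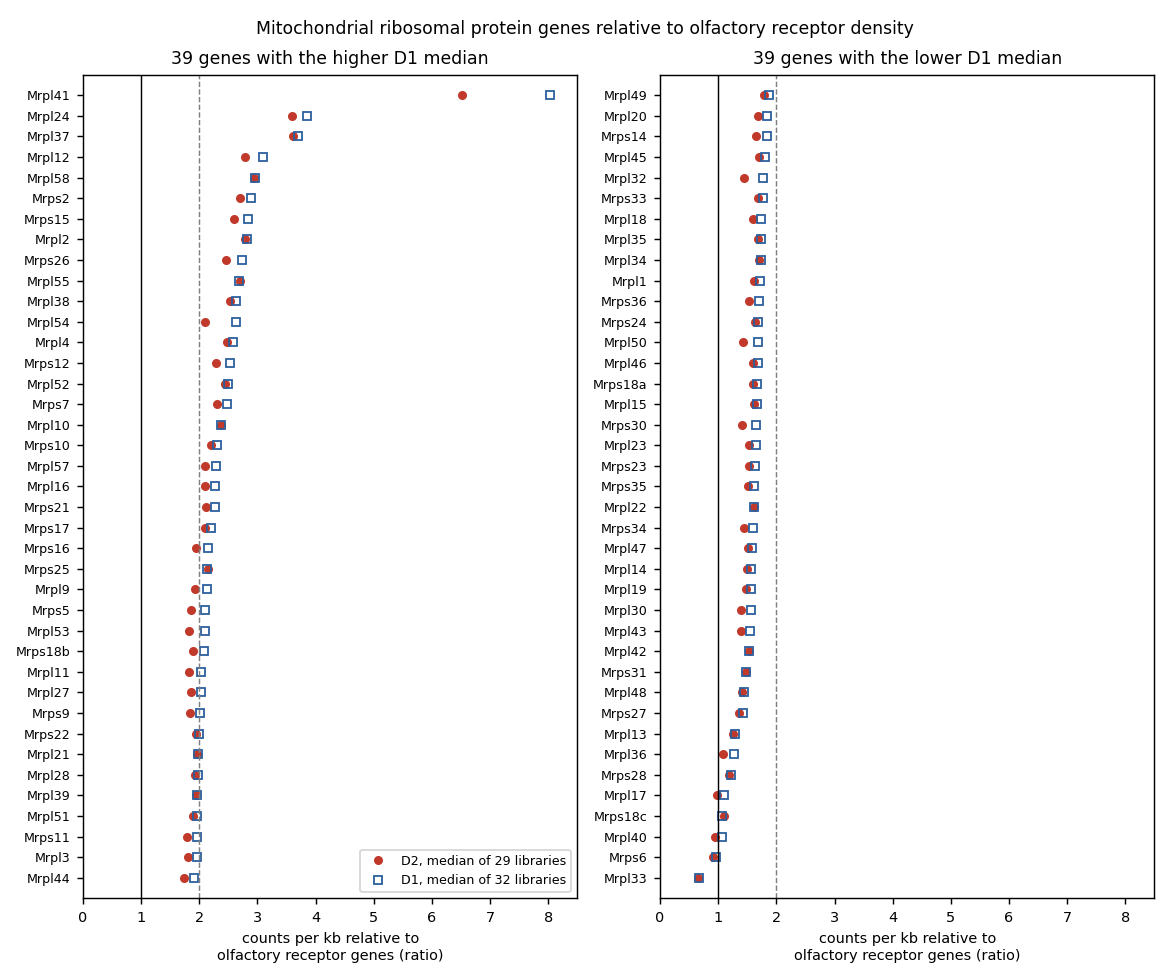
Ratio of each of the 78 mitochondrial ribosomal protein genes to the olfactory receptor density of the same library (x axis, counts per kb over counts per kb), as the median over 29 D2 libraries (filled circles) and 32 D1 libraries (open squares). The solid line marks the olfactory density and the dashed line a ratio of 2, and Mrpl41 stands alone at 6.52 in D2 and 8.02 in D1 while Mrpl33 lies under 1 in both.

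Mrpl41, a large-subunit protein, had the highest ratio. Its gene is a short one of 0.982 kb at chr2:24974117-24975098 (mm10, minus strand) with no other annotated gene inside it. Its median ratio in D2 nuclei was 7.37 in MM, 7.94 in MS, 5.10 in SM and 5.27 in SS, and in D1 nuclei 8.84 in MM, 6.57 in MS, 7.19 in SM and 7.70 in SS. Within each cell type the 4 treatments overlapped, and the count behind these ratios was 35 to 159 per library. Mrpl24 and Mrpl37, large-subunit proteins, followed with D2 medians of 3.60 ± 1.47 and 3.62 ± 1.45 (SD, n = 29), and their order was not tested. Mrpl58, a peptidyl-tRNA hydrolase that has become part of the large subunit, had a median of 2.94 in D2 and 2.97 in D1. Mrps15, a small-subunit protein, had 2.60 in D2 and 2.83 in D1.

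Genes with known special roles had D2 median ratios between 1.10 and 2.79. Mrpl12 and Mrpl10 form the stalk of the large subunit that receives translation factors, and Mrpl12 has also been found to bind the mitochondrial RNA polymerase. Mrpl12 had a median ratio of 2.79 in D2 and 3.10 in D1, and Mrpl10 had 2.38 in both. Mrps12, at the decoding centre of the small subunit, had 2.29 in D2 and 2.53 in D1. Mrpl45, which in the mammalian ribosome lies where it attaches to the inner membrane, had 1.70 in D2 and 1.80 in D1, and Mrpl44, a large-subunit protein with a fold related to ribonuclease III, had 1.73 in D2 and 1.91 in D1. Of genes mutated in human combined oxidative phosphorylation deficiency, Mrpl3 had 1.81 in D2 and 1.96 in D1, Mrps16 had 1.94 in D2 and 2.15 in D1, and Mrps22 had 1.94 in D2 and 2.003 in D1. The paralogs of the Mrps18 family differed: Mrps18b had 1.89 in D2 and 2.09 in D1, Mrps18a had 1.60 in D2 and 1.67 in D1, and Mrps18c had 1.10 in D2 and 1.07 in D1. Mrps30 had 1.41 in D2 and 1.66 in D1, and Mrps36 had 1.53 in D2 and 1.70 in D1. The SD over D2 libraries ran from 0.28 for Mrps18c to 0.82 for Mrpl10 among these genes. All ratios of a library share its olfactory density, so this SD cannot say whether neighbours in this order differ, which was not tested. The order in D2 and in D1 was nearly the same across the 78 genes (Spearman's rho 0.96, a description over genes that share libraries and gene structure).

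The 5 lowest genes were Mrps28, Mrps6, Mrpl17, Mrpl40 and Mrpl33. Their D2 medians were 1.18, 0.918, 0.972, 0.935 and 0.649, and their D1 medians 1.22, 0.962, 1.10, 1.06 and 0.672, in that order. At these ratios the counts over the gene were close to what olfactory receptor genes of that length carry, or below it for Mrpl33. Mrps28 lay slightly above that density, with a D2 SD of 0.103 and a lowest value of 0.988 over 61 libraries. The others share at least 99% of their span with another gene, so their counts are uncertain. In most libraries a level of their own transcript was not told apart from that density. In D1 SS replicate 1, the library of lowest olfactory density, the 5 genes stood at 3.58, 13.8, 6.29, 5.84 and 3.26 times it, in the same order. Mrps28, at 121.77 kb the longest of the set, had the highest count, with a median of 1372 per library. Mrpl34, at 0.789 kb the shortest, had the lowest, with a median of 13 per library.

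The ratio varied with gene structure. The 53 genes with a span of up to 10 kb had a median ratio of 2.32, with 36 of 53 at 2 or more, while the 11 genes over 20 kb had a median of 1.56, with 2 of 11 at 2 or more. Across the 78 genes Spearman's rho was -0.43 between ratio and span and 0.35 between ratio and the exonic share of the span, given as descriptions with no test. Large-subunit genes by name had a median of 2.10 and small-subunit genes one of 2.20. Of the 78 genes, 42 overlap another annotated gene, or 53.9%, against 46.6% of all protein-coding genes. At least 99% of the span is shared for 7 of them, Mrpl2, Mrpl53, Mrps34, Mrps6, Mrpl17, Mrpl40 and Mrpl33, whose ratios had a median of 1.23. The 36 genes with no other gene in their span had a median of 2.38. Since the strand setting of the counting is not given in the sources used here, counts in shared stretches cannot be assigned with certainty, and the values of those 7 genes are uncertain throughout.

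**Figure D2:**
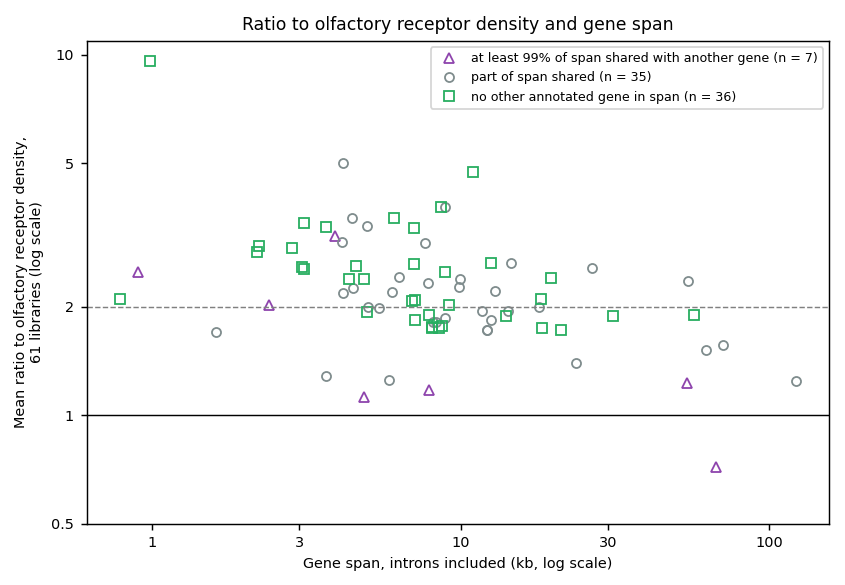
Mean ratio to the olfactory receptor density over 61 libraries (y axis, log scale) against gene span with introns (x axis, kb, log scale) for the 78 genes, with triangles for 7 genes sharing at least 99% of their span with another gene, circles for 35 sharing part and squares for 36 sharing none. The solid line marks a ratio of 1 and the dashed line a ratio of 2, and the longest genes lie lower, with a median of 1.56 over 20 kb.

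Promoters of the set were compared with all promoters by their letters. Many mitochondrial ribosomal protein genes are known to be targets of NRF1, of the ETS factor GABP and of YY1, regulators of nuclear genes for mitochondria. RefSeq promoter windows (250 bases before to 50 after the start, GRCm38.p6) were found for 69 of the 78 genes, with 75 windows in all. Mrpl4, Mrpl13, Mrpl15, Mrpl19, Mrpl38, Mrpl54, Mrps28, Mrps34 and Mrps35 had no entry. The ETS core CCGGAAG, searched like the others on both strands, was in 34.7% of these windows, against 8.86% of all 32851 windows and 11.6% of those of protein-coding genes. The NRF1 word, GCGCA and GCGC parted by any base, was in 17.3%, against 4.60% of all windows and 6.38% of those of protein-coding genes. The YY1 word AAGATGGC was in 16%, against 2.75% of all and 3.05% of protein-coding ones. The SP1 word GGGCGG was in 52% of the windows, against 35.7% of all and 46.2% of those of protein-coding genes. The E-box CACGTG was in 9.33%, against 7.15% of all and 7.84% of protein-coding ones. The TATA word TATAAA was in 6.67%, against 13.6% of all and 12.6% of protein-coding ones. Matches to different words may overlap. The windows were richer in bases G and C, with a median of 58.7%, against 56.3% for protein-coding genes, and held a median of 21 CpG dinucleotides against 13. A start of another protein-coding gene on the other strand lay within 1000 bases for 33 of 78 genes, or 42.3%, against 10.9% of all protein-coding genes. Of the 69 genes, 43 held an NRF1, ETS or YY1 word and had a median ratio of 2.10, and 26 held none and had a median of 2.39. A match is a description of letters, not a binding site.

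The 6 promoter stretches below run from 100 bases before to 20 after the RefSeq start, 5′ to 3′ on the strand of the gene, with matches to the NRF1, ETS and YY1 words on either strand in capitals. They are Mrps26, whose treatment difference is described below, 3 genes of high ratio (Mrpl41, Mrpl58 and Mrpl12) and 2 of the lowest (Mrpl17 and Mrpl33), shown because words are present at both ends of the range. Their places in GRCm38.p6 are chr2:130563657-130563776 (plus) for Mrps26, chr2:24975079-24975198 (minus) for Mrpl41, chr11:115403652-115403771 (plus) for Mrpl58, chr11:120484537-120484656 (plus) for Mrpl12, chr7:105811068-105811187 (minus) for Mrpl17 and chr5:31613851-31613970 (plus) for Mrpl33.
Mrps26: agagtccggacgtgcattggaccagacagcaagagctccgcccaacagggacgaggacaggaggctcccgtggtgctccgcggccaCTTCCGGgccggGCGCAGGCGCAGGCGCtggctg
Mrpl41: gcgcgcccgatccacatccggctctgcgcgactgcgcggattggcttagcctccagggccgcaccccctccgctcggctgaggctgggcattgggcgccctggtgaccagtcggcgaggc
Mrpl58: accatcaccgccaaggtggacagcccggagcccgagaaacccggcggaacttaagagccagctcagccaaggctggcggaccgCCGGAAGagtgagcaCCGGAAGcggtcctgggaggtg
Mrpl12: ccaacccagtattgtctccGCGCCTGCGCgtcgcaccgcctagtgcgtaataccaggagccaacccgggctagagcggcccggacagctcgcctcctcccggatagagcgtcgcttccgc
Mrpl17: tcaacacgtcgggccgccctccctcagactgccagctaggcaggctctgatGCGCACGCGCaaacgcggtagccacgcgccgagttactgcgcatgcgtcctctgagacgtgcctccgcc
Mrpl33: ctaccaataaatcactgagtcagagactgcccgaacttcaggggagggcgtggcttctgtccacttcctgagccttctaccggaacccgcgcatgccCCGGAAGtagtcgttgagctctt
Mrps26 holds overlapping NRF1 matches and an ETS match on the reverse strand, Mrpl58 a pair of ETS matches, Mrpl12 an NRF1 match on the reverse strand, Mrpl17 an NRF1 match and Mrpl33 an ETS match. Mrpl41, the gene of the highest ratio, holds none of the words in this stretch.

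Across the 8 groups the set took a nearly constant share of the counts. The summed level of the 78 genes was 908 ± 38.9 CPM (SD, n = 61), with the lowest library at 856 CPM and the highest at 1046 CPM. In D2 nuclei it averaged 885 ± 27.3 CPM in MM (n = 7), 919 ± 39.7 CPM in MS (n = 8), 901 ± 38.6 CPM in SM (n = 7) and 897 ± 17.7 CPM in SS (n = 7). In D1 nuclei it averaged 921 ± 39.8 CPM in MM (n = 7), 925 ± 55.5 CPM in MS (n = 9), 909 ± 38.2 CPM in SM (n = 8) and 905 ± 37.7 CPM in SS (n = 8). The groups overlapped in every pairing, and their means lay between 885 and 925 CPM.

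Part of that sum is what genes of this length would carry at the olfactory density. Above that density the set summed to 357 ± 148 CPM (SD, n = 61), from 99.2 to 817 CPM, and this excess falls as the density rises by its construction. Set against all counts above that density, the set made up 1051 ± 81.9 CPM of those counts (SD, n = 61), from 871 to 1342 CPM. In D2 nuclei this share was 993 ± 71.8 in MM, 1047 ± 76.8 in MS, 1073 ± 58.8 in SM and 1056 ± 59.96 in SS. In D1 nuclei it was 1031 ± 50.7 in MM, 1106 ± 120 in MS, 1049 ± 77.0 in SM and 1042 ± 90.5 in SS. Its coefficient of variation was 7.79%, against 41.3% for the excess in CPM, and D1 SS replicate 1, at 889, had the next to lowest value of this share. In such pooled nuclei, fewer nuclei of a type and less RNA per nucleus cannot be told apart.

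**Figure D3:**
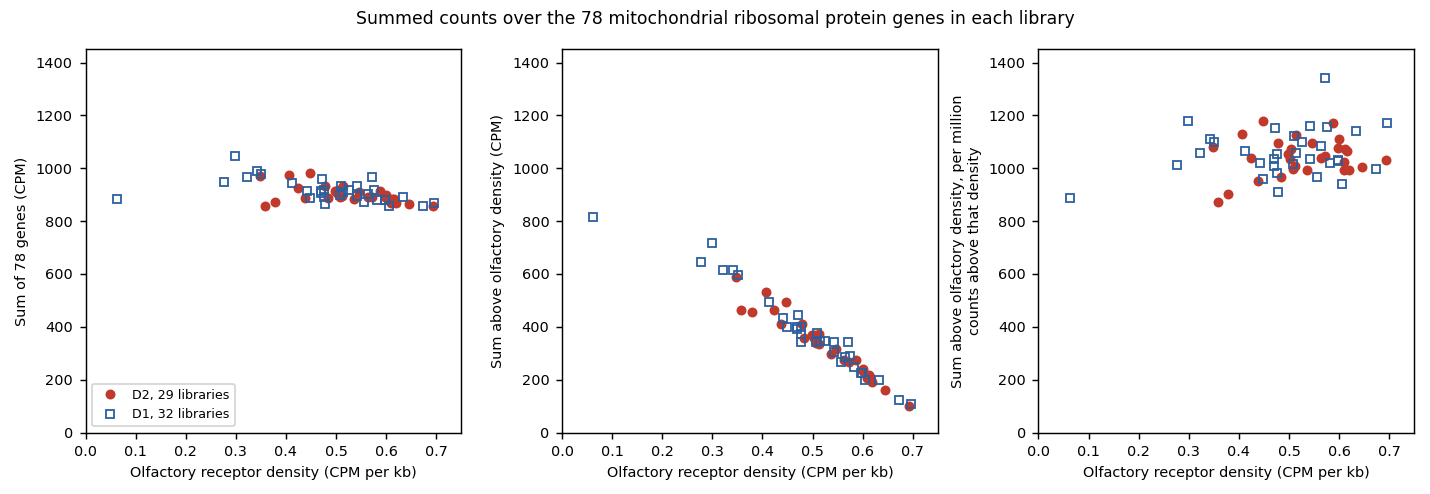
Summed level of the 78 genes in each library against its olfactory receptor density (x axes, CPM per kb), with D2 libraries as filled circles and D1 libraries as open squares. The left panel shows CPM, between 856 and 1046, the middle panel the CPM above the olfactory density, between 99.2 and 817, and the right panel that excess as CPM of the counts above the density, between 871 and 1342.

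Differences between treatments were tested gene by gene with edgeR on counts, with p-values adjusted over all genes. All 78 genes passed the filter on low counts in each fit. No mitochondrial ribosomal protein gene passed an adjusted p of 0.05 in any of the 19 comparisons, and across all genes tested edgeR called 0% in each of the 12 comparisons of treatments within a cell type. limma voom also called 0 of 78 genes in all 19, and DESeq2 called 0 in all but 3, which are given below. Fold changes below are log2 values of the fit with their standard error (SE), and levels are CPM scaled by the TMM method. In the fit of both cell types, D1 SS replicate 1 had a TMM factor of 0.388, where the next lowest library had 0.811. Such a low factor raises the scaled levels of that library above its unscaled ones.

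In D2 nuclei, repeated morphine followed by a saline challenge gave the widest difference of the set between treatments. Fold changes of MS against SS were positive for 74 of 78 genes, with a median of 0.20, while the median of all genes tested was -0.05 and 42.2% of them were positive. edgeR called 0 of 78 genes, the smallest adjusted p being 0.0713. At an unadjusted p under 0.05, 32 of 78 genes were higher and 0 lower, against 18.6% higher and 13.4% lower among all genes. DESeq2 called 24 of 78 genes, all higher, at an adjusted p of 0.05, where it called 12.9% of all genes as higher, and gave no adjusted p for 8 of the 78.

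Mrps26, a small-subunit protein particular to mitochondria, had the smallest p. Its level in D2 MS libraries ran from 5.54 to 9.80 CPM with a median of 7.90 CPM, against 4.53 to 6.15 CPM with a median of 5.58 CPM in D2 SS libraries. The groups overlapped at their edges. Its fold change was 0.50 ± 0.12 (SE), with an edgeR adjusted p of 0.0713 and a DESeq2 adjusted p of 0.0254. Mrpl28, a large-subunit protein, ran from 2.69 to 4.97 CPM in D2 MS and from 1.67 to 3.37 CPM in D2 SS, with medians of 3.81 and 2.41 CPM. Its fold change was 0.53 ± 0.15 (SE), with an edgeR adjusted p of 0.0713 and a DESeq2 adjusted p of 0.0254. On the other side of zero lay Mrps28, at -0.08 ± 0.06 (SE), and Mrpl44, at -0.09 ± 0.10 (SE), neither of which passed the edgeR test (adjusted p = 0.365 and 0.538).

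The mean olfactory density was lower in D2 MS than in D2 SS, a difference that did not pass adjustment. It was 0.467 ± 0.0792 CPM per kb in D2 MS (SD, n = 8), against 0.556 ± 0.0504 CPM per kb in D2 SS (SD, n = 7), with a two-sided exact permutation p of 0.0233, or 0.35 adjusted over the 15 pairs of groups compared. With the log2 density of each library as a covariate in edgeR, the median fold change of the set was 0.06, 56 of 78 genes were positive and 8 were higher at an unadjusted p under 0.05, against 5.37% of all genes in that fit. Cell type markers differed as well. The 5 D2 neuron markers summed to 819 to 2420 CPM in D2 MS and 697 to 1316 CPM in D2 SS. The 5 D1 neuron markers summed to 51.4 to 104 CPM in D2 MS and 48.8 to 65.9 CPM in D2 SS, and 5 of the 5 D2 and 3 of the 5 D1 neuron markers were higher at an unadjusted p under 0.05 in edgeR, which called 0 of them. The 5 astrocyte markers summed to 104 to 169 CPM in D2 MS and 158 to 193 CPM in D2 SS, and the 5 endothelial markers to 201 to 330 CPM in D2 MS and 300 to 363 CPM in D2 SS. Of the astrocyte, endothelial and microglia markers, 0 of 5 in each list reached a mean ratio of 2 to the olfactory density. The part of cell makeup in the result was not tested. The 44 genes at a ratio of 2 or more had a median fold change of 0.25, and the other 34 one of 0.14.

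**Figure D4:**
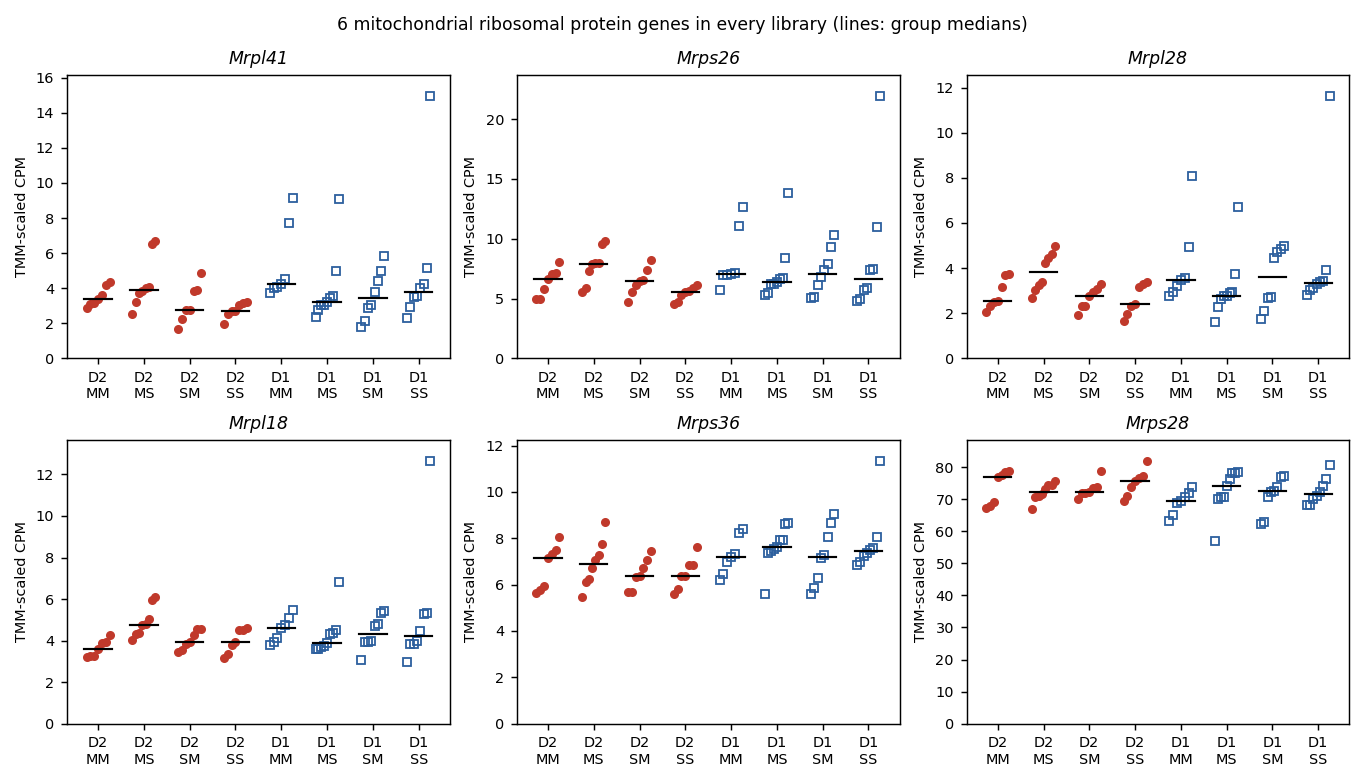
TMM-scaled CPM (y axes, from 0) of 6 mitochondrial ribosomal protein genes in every library of the 8 groups (x axes), with filled circles for D2, open squares for D1 and lines for group medians, sorted by value within a group. Mrps26 and Mrpl28 lie higher in D2 MS, with medians of 7.90 and 3.81 CPM, than in D2 SS, with 5.58 and 2.41 CPM. In these scaled values 1 D1 SS library, replicate 1 with a TMM factor of 0.388, stands above the rest for 5 of the 6 genes.

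A morphine challenge after repeated morphine went with fold changes of the other sign. In D2 MM against MS, 72 of 78 fold changes were negative, with a median of -0.12, while the median of all genes was below 0.01 in size. edgeR called 0 of 78 genes, and 8 were lower at an unadjusted p under 0.05, against 2.51% of all genes. Mrpl18, a large-subunit protein, ran from 3.23 to 4.27 CPM in D2 MM libraries, with a median of 3.57 CPM, and from 4.05 to 6.12 CPM in D2 MS libraries, with a median of 4.77 CPM. The ranges overlapped between 4.05 and 4.27 CPM, and the fold change was -0.44 ± 0.10 (SE; unadjusted p = 0.000158, edgeR adjusted p = 0.973). Mrpl22, a large-subunit protein near the exit of the peptide tunnel, had a fold change of -0.28 ± 0.10 (SE), with an edgeR adjusted p of 0.973. Mrpl34, at 0.30 ± 0.26, and Mrps28, at 0.04 ± 0.06, had the smallest p among genes on the positive side (edgeR adjusted p = 0.973 for both). The olfactory density was 0.509 ± 0.118 CPM per kb in D2 MM (n = 7) and 0.467 ± 0.0792 in D2 MS (n = 8), with an exact permutation p of 0.43. With the density as covariate the median was -0.06, and 9 genes were lower at an unadjusted p under 0.05, against 4.26% of all genes in that fit.

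The other comparisons in D2 nuclei were smaller. For MM against SS the median was 0.11, 59 of 78 genes were positive and edgeR called 0, with 3 genes higher at an unadjusted p under 0.05 against 5.39% of all genes. With the density as covariate the median was below 0.01 in size and 41 of 78 genes were positive. Mrps30 averaged 7.45 ± 1.40 CPM in D2 MM and 5.88 ± 0.883 CPM in D2 SS (SD, n = 7 each), and its fold change was 0.32 ± 0.13 (SE, edgeR adjusted p = 0.361). Mrps9 had 0.21 ± 0.09 against SS and 0.21 ± 0.09 against SM (SE), with edgeR adjusted p of 0.365 and 0.608. For SM against SS, an acute morphine challenge in mice without earlier morphine, the median was 0.03, 50 of 78 genes were positive and 0 had an unadjusted p under 0.05, against 3.24% of all genes. Mrps26 had the smallest p there, at 0.24 ± 0.13 (SE, edgeR adjusted p = 1.00), and Mrpl42 followed at 0.11 ± 0.07. For MM against SM the median was 0.05, or -0.06 with the density as covariate, and 1 gene had an unadjusted p under 0.05, against 7.73% of all genes. The difference between the challenge responses, MM against MS minus SM against SS, had a median of -0.18 and was negative for 70 of 78 genes. It was called for 0, with 4 genes lower at an unadjusted p under 0.05 against 1.71% of all genes, and Mrps26 at -0.53 ± 0.17 and Mrpl18 at -0.45 ± 0.15 had the smallest p (SE, edgeR adjusted p = 0.991).

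In D1 nuclei the sign of the set rested on a single library. Against SS, the median fold change was -0.07 in MM, with 21 of 78 genes positive, -0.18 in MS, with 6 positive, and -0.18 in SM, with 5 positive. Without D1 SS replicate 1 the medians were 0.17 in MM, 0.05 in MS and 0.06 in SM, and with the olfactory density as covariate 0.08, 0.06 and 0.02. edgeR called 0 of 78 genes in each of these comparisons with and without that library. At an unadjusted p under 0.05 there was 1 gene in MM, 0 in MS and 0 in SM, against 1.92%, 2.68% and 1.87% of all genes. The medians in MM, MS and SM were 0.02, -0.11 and -0.09 in limma voom and -0.24, -0.32 and -0.34 in DESeq2, in which 3, 8 and 9 genes were lower at an unadjusted p under 0.05, against 3.07%, 9.18% and 6.52% of all genes. Without D1 MS replicate 2 the MS median was -0.28, with 9 genes lower at an unadjusted p under 0.05, against 10.4% of all genes.

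The genes with the smallest p in D1 differed with and without D1 SS replicate 1. Mrpl49, a large-subunit protein, had -0.44 ± 0.22 in SM against SS, and averaged 3.55 ± 1.09 CPM in SM and 4.94 ± 2.66 CPM in SS (SD, n = 8 each). Mrpl55 had -0.50 ± 0.26 in the same comparison (SE, edgeR adjusted p = 0.955 for both), and without D1 SS replicate 1 the values were -0.18 for Mrpl49 and -0.10 for Mrpl55. Mrps15 had -0.55 ± 0.33 in MS against SS and 0.03 without D1 SS replicate 1, while Mrpl16 had -0.29 ± 0.17 and -0.10 without it (SE, edgeR adjusted p = 0.824 for both). Mrpl46 had the smallest p among positive fold changes against SS in each comparison, at 0.25 ± 0.12 in MM, 0.10 ± 0.12 in MS and 0.09 ± 0.12 in SM (SE, edgeR adjusted p = 1.00, 0.832 and 0.955), and with the size factors of DESeq2 in edgeR it was -0.02 in MS and -0.03 in SM. Mrpl36, a large-subunit protein, averaged 2.01 ± 0.414 CPM in MM (n = 7) and 2.53 ± 0.318 CPM in SM (n = 8), a log2 difference of -0.35 ± 0.16 (SE, edgeR adjusted p = 1.00).

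Set against the other morphine-treated D1 groups, MM had small positive medians. The median was 0.10 against MS, with 64 of 78 genes positive, and 0.13 against SM, with 67 of 78 positive, and edgeR called 0 in both. At an unadjusted p under 0.05 there was 0 and 1 gene, against 2.29% and 1.34% of all genes. Without D1 MS replicate 2 the median against MS was 0.18, with 4 genes higher at an unadjusted p under 0.05, against 3.29% of all genes. With the density as covariate the medians were near 0, below 0.01 in size against MS and 0.05 against SM. Mrpl23 had 0.31 ± 0.16 against MS, and Mrpl41 had 0.56 ± 0.33 against SM (SE, edgeR adjusted p = 0.988 and 1.00). Mrpl41 ran from 3.73 to 9.14 CPM in D1 MM and from 1.79 to 5.82 CPM in D1 SM, with overlap over much of the range. The difference between the challenge responses had a median of 0.28, with 72 of 78 genes positive and 0 called, and 0.05 without D1 SS replicate 1. At an unadjusted p under 0.05 there was 1 gene, against 2.32% of all genes, and without D1 MS replicate 2 there were 10, all higher, against 7.86% of all genes. Mrpl49 had the smallest p in this difference, at 0.71 ± 0.32 (SE, edgeR adjusted p = 0.782), and 0.46 without D1 SS replicate 1.

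Between cell types, the set had negative median fold changes in 3 of the 4 treatments. The median fold change of D2 against D1 was -0.17 in MM, 0.06 in MS, -0.11 in SM and -0.34 in SS. edgeR called 0 of 78 genes in each, and among all genes it called 0.056% in MM, 0.0746% in MS, 0.0303% in SM and 0.0467% in SS. At an unadjusted p under 0.05, 5 genes were lower in D2 MM, 0 in MS, 0 in SM and 42 in SS, against 3.09%, 1.26%, 0.69% and 21.8% of all genes. In SS, DESeq2 called 44 of 78 genes as lower, where it called 22% of all genes as lower. Without D1 SS replicate 1 the SS median was -0.12, with 0 genes at an unadjusted p under 0.05, against 3.56% of all genes. With the olfactory density as covariate the SS median was -0.02. With that covariate the median was -0.07 in MM, below 0.01 in size in MS and 0.02 in SM, so its sign in SM turned. Without D1 MS replicate 2 the MS median was 0.15. In SS the 5 cortical glutamatergic markers summed to 126 to 158 CPM in D2 and 91.5 to 298 CPM in D1. Their group medians were close, at 139 CPM in D2 and 146 CPM in D1, and the highest D1 library was D1 SS replicate 1. With that library included, all 5 had negative fold changes of D2 against D1, with a median of -0.82. edgeR called 1 of them, and their part in the result was not tested. The density was 0.556 ± 0.0504 CPM per kb in D2 SS (n = 7) and 0.474 ± 0.195 in D1 SS (n = 8), with an exact permutation p of 0.342.

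In SS, Mrps26 ran from 4.53 to 6.15 CPM in D2 and from 4.77 to 21.97 CPM in D1, with medians of 5.58 and 6.65 CPM, and its fold change was -0.65 ± 0.22 (SE, edgeR adjusted p = 0.0983). Mrps6, whose gene shares nearly its whole span with others, averaged 22.6 ± 2.73 CPM in D2 SS (n = 7) and 38.2 ± 34.2 CPM in D1 SS (n = 8), a log2 difference of -0.75 ± 0.26 (SE, edgeR adjusted p = 0.0983). Without D1 SS replicate 1 these differences were -0.32 for Mrps26 and -0.23 for Mrps6. In MM, Mrpl12 averaged 6.03 ± 0.704 CPM in D2 and 8.60 ± 1.90 CPM in D1 (SD, n = 7 each), a log2 difference of -0.51 ± 0.20 (SE, edgeR adjusted p = 0.900). In SM, Mrpl45 averaged 11.1 ± 0.977 CPM in D2 (n = 7) and 13.1 ± 2.11 CPM in D1 (n = 8), a log2 difference of -0.24 ± 0.12 (SE, edgeR adjusted p = 0.894). In MS, Mrpl22 and Mrpl18 had the smallest p among positive fold changes, at 0.18 ± 0.13 and 0.20 ± 0.16, and Mrps12 among negative ones, at -0.22 ± 0.15 (SE, edgeR adjusted p = 0.999 for each).

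Averaged over the 4 treatments, 77 of 78 fold changes of D2 against D1 were negative, with a median of -0.14. edgeR called 0 of 78 genes, against 0.301% of all genes, and 18 were lower at an unadjusted p under 0.05, against 9.88% of all genes. Mrps36, the dehydrogenase subunit, had the smallest p. It ran from 5.49 to 8.69 CPM over 29 D2 libraries, with a median of 6.73 CPM, and from 5.58 to 11.34 CPM over 32 D1 libraries, with a median of 7.40 CPM. The ranges overlapped widely, and the fold change was -0.17 ± 0.05 (SE, edgeR adjusted p = 0.282). Mrpl17 had -0.18 ± 0.07 (SE, edgeR adjusted p = 0.359). The single positive gene was Mrps28, at 0.04 ± 0.03 (SE). Without D1 SS replicate 1 the median was -0.09 and 9 genes were lower at an unadjusted p under 0.05, against 4.53% of all genes, and without D1 MS replicate 2 the median was -0.12 and 11 genes were, against 6.30%. With the olfactory density as covariate the median was -0.02 and 3 genes were, against 3.21%.

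The differences from SS in MS were set against each other between cell types. D2 minus D1 of that difference was positive for 74 of 78 genes, with a median of 0.37, while the median of all genes was -0.06. edgeR called 0 of 78 genes and 0% of all genes, and 31 were higher at an unadjusted p under 0.05, against 18.6% of all genes. Mrpl4, a large-subunit protein, had 1.199 ± 0.433, and Mrpl28 had 0.97 ± 0.35 (SE, edgeR adjusted p = 0.149 for both). These values depended on 2 D1 libraries. Without D1 SS replicate 1 the median was 0.18 and 1 gene had an unadjusted p under 0.05, against 5.97% of all genes. Without D1 MS replicate 2, the library of lowest olfactory density in that group, edgeR called 14 of 78 genes as higher, where it called 10.9% of all genes as higher, with Mrpl4 at 1.43 and Mrpl28 at 1.18 (edgeR adjusted p = 0.0406 for both). DESeq2 on all libraries called 22 of 78 as higher and gave no adjusted p for 11, where it called 13% of all genes as higher. With the olfactory density as covariate the median was 0.03. For MM against MS, D2 minus D1 had a median of -0.25, with 69 of 78 genes negative, 0 called and 5 lower at an unadjusted p under 0.05, against 1.76% of all genes. The count was 8 without D1 SS replicate 1, against 4.03% of all genes, and 17 without D1 MS replicate 2, against 7.04%. With the density as covariate the median was -0.07, with 55 genes negative. Mrpl28, at -0.81 ± 0.36, and Mrpl18, at -0.53 ± 0.23, had the smallest p (SE, edgeR adjusted p = 0.878).

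**Figure D5:**
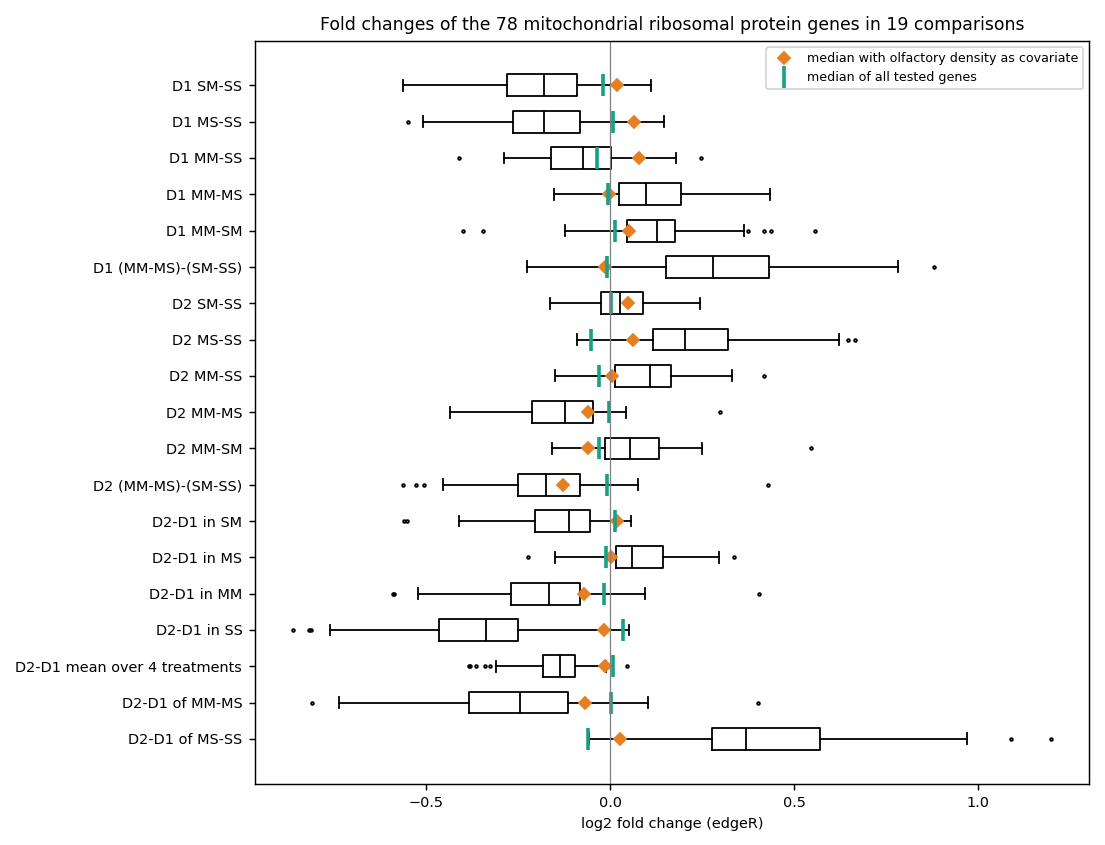
Log2 fold changes (x axis) of the 78 genes in 19 comparisons (y axis), as boxes from the lower to the upper quartile with the median as a line and whiskers to 1.5 times the box length, beside the median of all tested genes (bars) and the median of the 78 genes with olfactory density as a covariate (diamonds). The set lies to the right of zero in D2 MS-SS, with a median of 0.20, and to the left in D2-D1 in SS, with -0.34, while the diamonds lie at 0.06 and -0.02.

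Over the 15 comparisons of a pair of groups, the median of the set and the log2 ratio of the olfactory densities had opposite signs in 13. The exceptions were MM against SS in D1 and SM against SS in D2. The comparisons share libraries, so this is a count and not a test. With the density as covariate, the medians of all 19 comparisons lay between -0.13, in the D2 interaction, and 0.08, in D1 MM against SS.

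Other genes of mitochondrial translation were described in the same way. In D2 MS against SS the median fold change was 0.21 over 16 translation factors, 0.10 over 24 assembly factors of the mitochondrial ribosome, 0.09 over 20 mitochondrial aminoacyl-tRNA synthetases, 0.35 over 5 ribosomal subunits with other names and 0.23 over 13 regulators of mitochondrial genes. edgeR called 0 genes of each list, and 8, 7, 8, 3 and 9 were higher at an unadjusted p under 0.05, in that order, against 18.6% of all genes. Gfm1, an elongation factor of mitochondria, averaged 38.1 ± 2.67 CPM in D2 MS (n = 8) and 32.4 ± 1.61 CPM in D2 SS (n = 7), a fold change of 0.21 (edgeR adjusted p = 0.0713). Mettl17, an assembly factor of the small subunit, averaged 17.1 ± 5.83 CPM in D2 MS and 10.3 ± 2.40 CPM in D2 SS, a fold change of 0.71 (edgeR adjusted p = 0.0713). Yy1 averaged 36.9 ± 9.34 CPM in D2 MS and 26.3 ± 4.31 CPM in D2 SS, a fold change of 0.48 (edgeR adjusted p = 0.0713). Ptcd3, a small-subunit protein outside the Mrps names, had 0.35 (edgeR adjusted p = 0.0716).

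Lists of higher ratio to the olfactory density had larger medians in the same comparison. The 85 nuclear genes of oxidative phosphorylation had a median of 0.38, with 70 higher at an unadjusted p under 0.05, and the 80 cytosolic ribosomal protein genes one of 0.40, with 58 higher. The 9 mitochondrially encoded genes that passed the filter had a median of 1.17, with all 9 higher at an unadjusted p under 0.05. edgeR called 0 genes of these lists. Among all genes tested, 18.6% were higher at an unadjusted p under 0.05, and the median was -0.05. With the density as covariate the medians were 0.15 for oxidative phosphorylation, 0.15 for cytosolic ribosomal proteins and 0.97 for mitochondrially encoded genes, beside 0.06 for the mitochondrial ribosomal proteins. In D2 against D1 under SS the medians were -0.54 for oxidative phosphorylation, -0.52 for cytosolic ribosomal proteins, -0.80 for mitochondrially encoded genes and -0.34 for the mitochondrial ribosomal proteins, and with the covariate -0.07, -0.10, -0.58 and -0.02. The median of all genes was 0.03 there, and 0.01 with the covariate in either comparison. Cytosolic ribosomal protein genes have many processed copies in the genome, and how the counting treated reads shared with such copies is not given in the sources used here.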

How the data were processed

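RNA from sorted nuclei was measured in 61 libraries. The deposited counts are whole numbers per gene made by the authors with featureCounts on mm10, per the submitters' processing notes, which also name DESeq2. The library kit marks strand, per the labels' protocols. Not given in the sources used here: aligner, annotation release, strand setting of the counting, and versions. The deposited FPKM values were used for gene lengths only: those lengths equal the whole gene span, introns included, in GENCODE M21 for 54281 of 54281 identifiers tested (relative tolerance 1e-06), so counts per kb here are per kb of span.

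Symbols, overlaps and coordinates come from GENCODE M21, which matched 55141 of 55401 identifiers, and promoter sequences from RefSeq. The members and lists were chosen with earlier results of these data known. Tests used edgeR 4.0.16 (quasi-likelihood, robust, TMM scaling, filter by group) in 3 fits, of D1 libraries, of D2 libraries and of both, which tested 41083, 41125 and 42870 genes, with Benjamini-Hochberg adjustment over all genes and SE from the F statistic. Adding a log2 olfactory density term, DESeq2 1.42.0, limma 3.58.1 voom, DESeq2 size factors, no filter, a replicate block and leaving out D1 SS replicate 1 were alternatives, and leaving out D1 MS replicate 2 was added after seeing the data. Counts simulated from SM and SS libraries alone had a fixed spread and changes larger than the medians of the set. That spread was below the common coefficient of variation of the D1 fit, 0.28, and above that of the D2 fit, 0.154. Library sizes were kept, but not the makeup of single libraries such as D1 SS replicate 1. Of 200 changed genes, 180 were recovered in D1 and 179 in D2. This check does not give the power of the reported fits, for smaller changes or at their own spread. Named are the 2 genes of smallest p in each direction of a comparison, or some of them, the 5 highest and 5 lowest ratios, genes chosen for their roles, and in other lists genes of smallest p. Counts per library limit precision, and SDs are over libraries. Python 3.11.15 and R 4.3.3 were used.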

Additional observations from a re-analysis of the deposited data

Results flagged for a closer look

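In 80 sets of library values, each a measure in 1 group, 17 had a highest or lowest library whose gap to the next was large for the range of its group by Dixon's criterion. Chance alone gives about 1 in 20 sets, and the measures share libraries.

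Most of these values belong to 2 libraries. In D1 SS replicate 1 the set stood at 12.98 times the olfactory receptor density, where the next library of the group had 2.557. TMM-scaled levels there were 14.98 CPM for Mrpl41, 21.97 CPM for Mrps26, 11.64 CPM for Mrpl28, 12.66 CPM for Mrpl18 and 11.34 CPM for Mrps36, each the highest of the group. These levels include a TMM factor of 0.388, which raises them above the unscaled ones, so they are not by themselves a sign of more transcript. In D1 MS replicate 2 the olfactory density was 0.2992 CPM per kb, the lowest of its group, and the set stood at 3.2 times that density, against 1.677 in the next library. Mrpl41 was at 9.091 CPM, Mrps26 at 13.82 CPM, Mrpl28 at 6.726 CPM and Mrpl18 at 6.8 CPM there, the highest of the group, and Mrps28 was the lowest of its group at 56.98 CPM.

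The other 4 values were single ones. Mrpl28 reached 8.071 CPM in D1 MM replicate 3, and Mrps36 was lowest in D1 MS replicate 4 at 5.577 CPM. The summed level of the set was 980.7 CPM in D2 SM replicate 4, and Mrps28 was 78.77 CPM in D2 SM replicate 7.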

How the results depend on the processing

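edgeR called 0 of 78 genes in all 19 comparisons, and 0 was the count under all alternatives run except the following. In D2 MS against SS, DESeq2 called 24 genes and the replicate block 25, where edgeR with the block called 14.2% of all genes as higher. In D2 against D1 under SS, DESeq2 called 44 genes and DESeq2 size factors in edgeR 31, where the size factors called 18.5% of all genes as lower. For D2 minus D1 of MS against SS, DESeq2 called 22, and leaving out libraries gave 0 to 14, the highest without D1 MS replicate 2, chosen after seeing the data. The cause of these differences was not tested. Replicate numbers were not shown to pair libraries. Same-numbered libraries of different groups had a median correlation of 0.02 in D1, 0.02 in D2 and 0.03 over both. For other numbers it was 0.01 in D1, -0.001 in D2 and 0.0005 over both. Correlations exceeded 0.1 in 14 of 45 same-number pairs in D1 and 16 of 42 in D2, and 13 of 61 libraries correlated best with their own number. These values do not exclude that some numbers mark pairs. With a threshold of 3 in place of 2 times the olfactory density, 4 genes passed in D2 and 22 in D1. At the threshold of 2, by the median over libraries in place of the mean, 32 passed in D1. No share of all protein-coding genes is given beside these counts.

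Named genes reversed sign, all of small fold change except Mrps15, which was at -0.55 in D1 MS against SS. With DESeq2, Mrpl46 was at -0.006808 in D1 SM against SS and -0.002196 in MS against SS, Mrpl35 at 0.02991 in the D1 interaction, Mrps28 at -0.04202 in D2 against D1 under SS, and Mrps28 and Mrpl48 at 0.03272 and 0.09424 in D2 minus D1 of MS against SS. With DESeq2 size factors in edgeR the same values were -0.0304, -0.02431, 0.05051, -0.05319, 0.0459 and 0.1108, and Mrpl36 was at -0.02019 in D1 SM against SS and Mrpl50 at -0.005404 in D1 MM against SS. Mrps15 in D1 MS against SS was 0.05806 with the olfactory density as covariate, and between -0.7532 and 0.02757 when a library was left out. Of the other values, of named genes and medians of the set, 644 kept direction and side of the threshold or moved by less than the median SE. Another 11, of named genes, passed the threshold under an alternative only, and 13 medians moved by more than the median SE, 8 of them with the olfactory density as covariate. Medians of the set changed sign too. Examples given above are D1 MS and SM against SS without D1 SS replicate 1, and D2 MM against SM with the density as covariate.

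Low counts limit the shortest genes, with a median of 13 per library for Mrpl34, and genes near the olfactory density were resolved above it in D1 SS replicate 1 more than in other libraries.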
